A study of Rattus norvegicus with 13 samples.

Results

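Potassium channel genes were followed through the H3K4me2 and FLAG maps of rat aortic smooth muscle cell (SMC) lines. The set held every gene whose symbol follows the Kcn naming pattern in any of the 4 deposited peak lists, together with the sulfonylurea receptor genes Abcc8 and Abcc9, and it came to 77 of the 21397 genes named in the lists. Abcc8, Kcna5 and Kcnab1 had no peak assigned in any list, so Abcc9 was the one receptor gene counted. The peaks were assigned to genes by the authors' annotation (ChIPseeker, build rn6), which takes the nearest start site.

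The H3K4me2 maps came from control cells (labelled WT), from cells carrying Myocd-LSD1 and from cells carrying Myocd-LSD1NF (n = 3 samples each), and the FLAG map came from cells with FLAG-tagged Myocd-LSD1 (n = 4 samples). LSD1 is the demethylase that removes methyl groups from lysine 4 of histone H3, and Myocd encodes myocardin, a coactivator of serum response factor in muscle. The labels do not say what NF stands for, whether a line was a clone, or whether samples of a group were separate cultures, so the FDR values below measure the spread between these samples, which may be technical. In CUT&Tag an antibody brings the Tn5 transposase to the epitope, and the cut DNA is sequenced.

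Each group had 1 deposited peak list, so comparisons of lists carry no replicate error, and read depth was unknown. Replicates entered only the comparison between the fusion lines; the authors' deposited table lists its sites with an FDR of at most 0.05, with a mean log2 concentration per line and no value per sample. A site is called lower or higher here as Myocd-LSD1 against Myocd-LSD1NF. Of the smooth muscle marker genes, 7 of 7 had an H3K4me2 peak within 3 kb of a start site in the control list, 6 in the Myocd-LSD1 list (Myh11 had none) and 7 in the Myocd-LSD1NF list. Of 5 endothelial markers, 1 had such a peak in control and 0 in either fusion line. Of 5 neuronal markers, 2 had one in the control list, 4 in the Myocd-LSD1 list and 2 in the Myocd-LSD1NF list. The neuronal marker Stmn2 was named in no list. Of 4 cardiac markers, Myh6 was named in no list, and 1 had such a peak, in the Myocd-LSD1NF list alone. Of 3 leukocyte markers, Ptprc and Cd68 were named in no list, and Csf1r had such a peak in all 3 H3K4me2 lists. By the authors' deposited table, 2 of the neuronal markers had a higher site and 0 a lower one. Of the smooth muscle markers, 4 had a lower site and 1 a higher one. Myocd, the gene named in the fusions, was among the 4, and Acta2 had both. None of the endothelial, cardiac or leukocyte markers had either. Over all genes with an H3K4me2 peak in either fusion line, 9.28% had a lower site and 12.9% a higher one. Many channel genes are also neuronal, and the part of such cells or programmes in the results below was not tested. In bulk maps, fewer cells with a mark and less mark per cell cannot be told apart.

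Potassium channels let potassium leave the cell and so pull the membrane towards negative voltage. In arterial smooth muscle that closes voltage-gated calcium channels and relaxes the vessel. Voltage-gated Kv channels, large-conductance calcium-activated channels (pore gene Kcnma1), inward rectifiers, ATP-sensitive channels (Kcnj8 with the receptor Abcc9) and two-pore background channels share this work, with auxiliary subunits that tune them. H3K4me2 marks active and poised promoters and enhancers.

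The promoters of 5 genes on which the results below turn are shown first, because they differ widely in CpG content. Kcnd3 and Kcnj8 had lower sites at their start, Kcnma1 and Kcna6 had higher sites there with Myocd-LSD1NF at the lowest listed value, and Abcc9 had a promoter peak in control alone. The windows are the 250 bases before the annotated start, from RefSeq on GRCr8, a later build than the rn6 of the peaks, so their position relative to the peaks was not checked. They lie at chr2:195626066-195626315 (Kcnd3, plus strand), chr4:177246549-177246798 (Kcnj8, minus strand), chr4:177386349-177386598 (Abcc9, minus strand), chr15:351675-351924 (Kcnma1, plus strand) and chr4:161262353-161262602 (Kcna6, minus strand). Each is written 5′ to 3′ along its gene, with CG dinucleotides in capitals.
Kcnd3: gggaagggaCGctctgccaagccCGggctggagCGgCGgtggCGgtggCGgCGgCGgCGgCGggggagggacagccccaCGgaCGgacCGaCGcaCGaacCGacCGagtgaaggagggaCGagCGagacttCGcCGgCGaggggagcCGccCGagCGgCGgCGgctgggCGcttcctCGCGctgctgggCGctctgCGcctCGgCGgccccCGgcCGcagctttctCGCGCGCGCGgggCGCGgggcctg
Kcnj8: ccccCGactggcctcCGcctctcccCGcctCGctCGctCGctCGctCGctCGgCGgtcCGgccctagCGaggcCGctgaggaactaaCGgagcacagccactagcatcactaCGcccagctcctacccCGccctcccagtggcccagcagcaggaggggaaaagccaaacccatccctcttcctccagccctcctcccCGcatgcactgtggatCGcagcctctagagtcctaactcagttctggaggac
Abcc9: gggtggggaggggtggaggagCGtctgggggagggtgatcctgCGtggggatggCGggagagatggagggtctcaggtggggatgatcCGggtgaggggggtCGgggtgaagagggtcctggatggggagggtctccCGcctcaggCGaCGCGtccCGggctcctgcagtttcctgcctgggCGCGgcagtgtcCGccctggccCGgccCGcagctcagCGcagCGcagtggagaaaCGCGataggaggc
Kcnma1: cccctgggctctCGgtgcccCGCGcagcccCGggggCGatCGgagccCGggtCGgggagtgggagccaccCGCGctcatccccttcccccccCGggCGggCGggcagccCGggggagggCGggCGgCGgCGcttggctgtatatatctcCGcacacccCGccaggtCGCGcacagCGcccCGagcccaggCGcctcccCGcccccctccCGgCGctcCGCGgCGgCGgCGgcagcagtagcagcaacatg
Kcna6: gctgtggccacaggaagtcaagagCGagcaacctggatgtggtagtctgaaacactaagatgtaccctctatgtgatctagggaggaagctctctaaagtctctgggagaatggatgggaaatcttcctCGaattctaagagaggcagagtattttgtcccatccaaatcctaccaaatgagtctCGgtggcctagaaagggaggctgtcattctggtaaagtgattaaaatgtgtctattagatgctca

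Kcnd3 held 43 CG dinucleotides in this window, Kcnma1 33, Abcc9 19, Kcnj8 18 and Kcna6 3. RefSeq windows were matched for 53 of the 77 genes (59 windows), and their median was 12 CG dinucleotides, against 5 over all 33469 windows. Channel genes were included only if a peak list named them, and the windows over all genes had no such filter. The 10 windows of the 9 matched channel genes without an H3K4me2 promoter peak had a median of 6.5. The 7 windows of the 6 matched genes with a lower site within 3 kb of the start had a median of 16, with a range of 6 to 43. The 8 windows of the 6 matched genes with a higher site there had a median of 6, with a range of 2 to 33. Each window of a gene was counted, whichever of its starts the site lay near, so Kcnt1 among the lower and Kcnc2 and Kcnk2 among the higher weigh more. Some of these windows may thus belong to starts without a site. The Kcnc2 windows overlap each other. The ranges of the groups overlap, and their difference was not tested. The CArG box, the element bound by serum response factor, was searched by its consensus, which reads the same on both strands. It was found in 0 of the 59 windows and in 1.497% of all windows.

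The first comparison asked which potassium channel genes carried an H3K4me2 promoter peak, within 3 kb of a start site, in each line. In control cells 58 of 77 genes had one (75.3%; 95% exact Clopper-Pearson interval 64.2 to 84.4), against 65.8% of all genes. In Myocd-LSD1 cells 51 had one (66.2%; 54.6 to 76.6, against 64%), and in Myocd-LSD1NF cells 39 (50.6%; 39.0 to 62.2, against 61.7%). The order of the lines was the same over all genes, but the steps between them were larger in the potassium channel set. The order of the fusion lines turned with the stronger 50% of each list, where 37 channel genes had a promoter peak in control (all genes 53.8%), 29 in Myocd-LSD1 (all genes 53.1%) and 31 in Myocd-LSD1NF (all genes 51.3%). With peaks at any distance counted, 70 genes had a peak in control (all genes 86.5%), 62 in Myocd-LSD1 (all genes 85.1%) and 55 in Myocd-LSD1NF (all genes 83.2%). H3K4me2 peaks at any distance were listed in control alone for 7 genes (9.09%, against 3.9% of all genes), in control and Myocd-LSD1 with none in Myocd-LSD1NF for 11 (14.3%, against 3.94%) and in control and Myocd-LSD1NF with none in Myocd-LSD1 for 4 (5.19%, against 2.97%). The intervals cover counting error only.

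**Figure D1:**
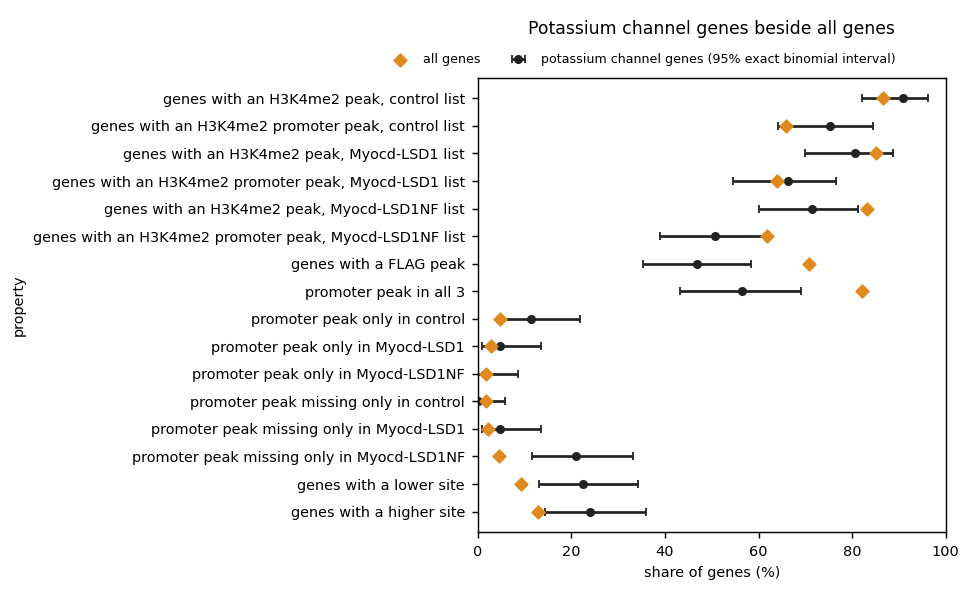
Share of potassium channel genes (black points, with 95% exact binomial intervals) and of all genes (orange diamonds) that have each property named on the left, in percent. Promoter classes are shares of genes with a promoter peak in any H3K4me2 list, sites are shares of genes with an H3K4me2 peak in either fusion line, and the rest are shares of all genes named. A promoter peak missing only in Myocd-LSD1NF stands at 21.0% for the channel genes against 4.55%, and a FLAG peak at 46.8% against 70.7%.

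At least 1 H3K4me2 list held a promoter peak for 62 of the channel genes, and 35 of these had one in all 3 lists (56.5%; 43.3 to 69.0), against 82% of the 15032 genes with a promoter peak in any list. The largest class of the rest was a peak in control and Myocd-LSD1 with none in Myocd-LSD1NF, which took in 13 genes (21.0%; 11.7 to 33.2, against 4.55%). A promoter peak in control alone was listed for 7 genes (11.3%; 4.66 to 21.9, against 4.8%). The other classes were small: 3 genes were missing only in Myocd-LSD1 (all genes 2.28%), 3 were present only in Myocd-LSD1 (all genes 2.81%), 1 only in Myocd-LSD1NF (all genes 1.78%), and 0 were missing only in control (all genes 1.76%). The remaining 15 genes had no promoter peak in any H3K4me2 list.

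Ranked by q-value within their own list, the channel genes' peaks had medians at the 41.3, 36.7 and 41.1 percentiles of the control, Myocd-LSD1 and Myocd-LSD1NF lists, where the median over all peaks is 50 by construction. The highest promoter peaks of the 13 genes missing only in Myocd-LSD1NF had a median rank at the 36.7 percentile in control and 32.1 in Myocd-LSD1, while those of the 35 genes marked in all 3 lists had 77.9 and 67.3. When the stronger 50% of each list was used, the class missing only in Myocd-LSD1NF fell to 2 genes, Kcng1 and Kcnma1, and of these Kcnma1 belonged to the 13. The class was not counted over all genes at that setting. In the small classes the highest promoter peaks ranked unevenly: Kcnj8 stood at the 88.4 percentile in control, Kcna6 at 76.7 in Myocd-LSD1 and Kcnt1 at 74.1 in Myocd-LSD1NF, while Kcnk7 stood below 1 in both lists that held it. The part of peak strength in the classes was not tested.

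**Figure D2:**
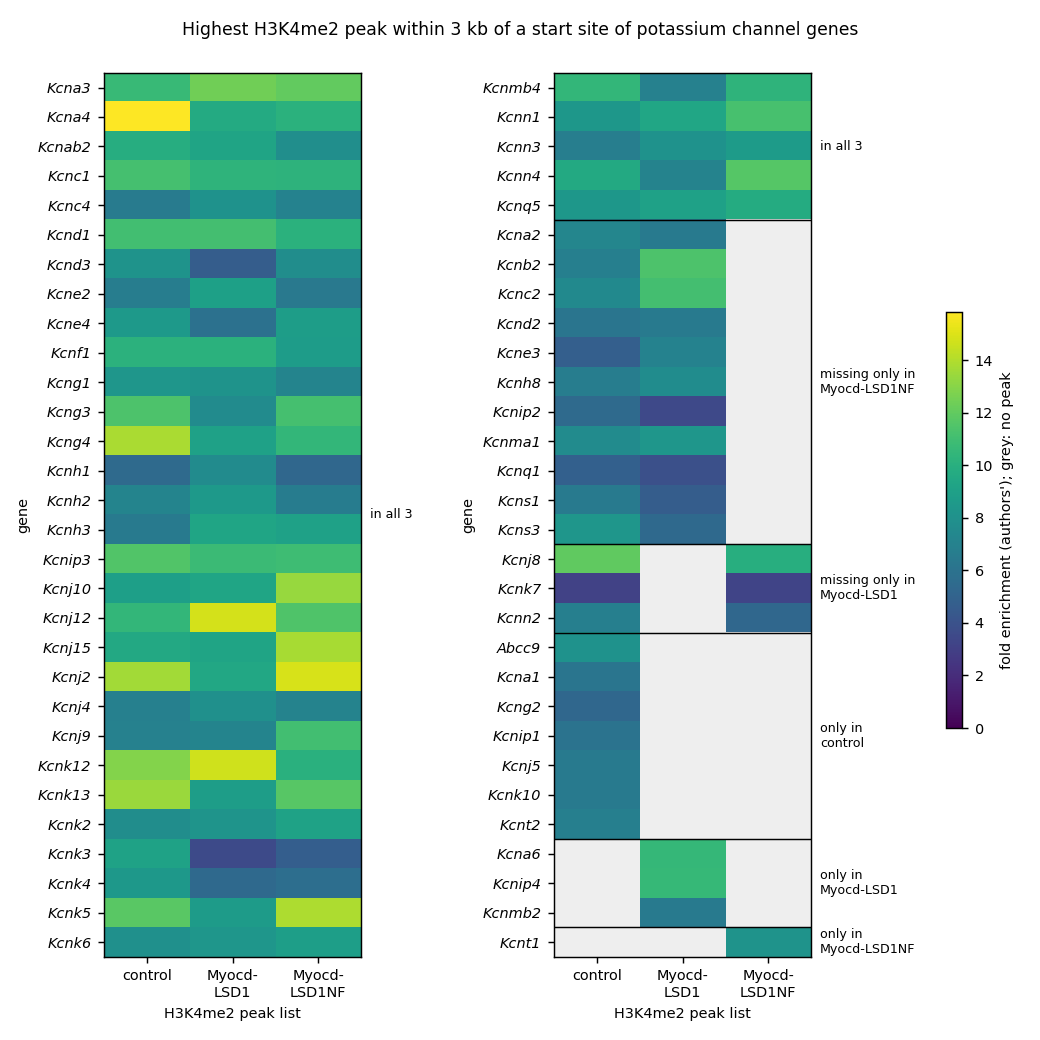
Fold enrichment of the highest H3K4me2 promoter peak (colour scale, authors' value) for the potassium channel genes reported here, in the 3 lists, grouped by class; grey cells have no promoter peak. The genes missing only in Myocd-LSD1NF and those present only in control show as blocks of grey in the right panel.

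Of the 13 genes missing only in Myocd-LSD1NF, 5 belonged to the Kv1 to Kv4 family. The class included the delayed rectifier genes Kcna2 and Kcnb2, the Kv3 gene Kcnc2, the A-type gene Kcnd2, the Kv7 gene Kcnq1 and the silent subunit genes Kcns1 and Kcns3. Kcnh8 (an Elk-type channel), Kcnip2 and Kcne3 (auxiliary subunits) and Kcnma1, the BK channel pore, were also in the class. Kcnb2 had a promoter peak of 6.81-fold enrichment over background in control and 11.4-fold in Myocd-LSD1. Kcnc2 had 7.496-fold in control and 11.1-fold in Myocd-LSD1. Kcnma1 had 7.65-fold and 8.32-fold. No peak within 3 kb was listed for any of the 13 in Myocd-LSD1NF. These fold enrichments are the authors' and are set side by side. Their scaling between lists is not stated, so a difference in fold between lists is not read as a change.

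The genes with a promoter peak in control alone were Abcc9 (8.10-fold), the sodium-activated channel gene Kcnt2 (6.81-fold), the inward rectifier gene Kcnj5 (6.47-fold), the two-pore gene Kcnk10 (6.46-fold), the Kv1.1 gene Kcna1 (6.13-fold), the auxiliary gene Kcnip1 (6.06-fold) and the modifier gene Kcng2 (5.30-fold). Those missing only in Myocd-LSD1 were Kcnj8, the small-conductance gene Kcnn2 (6.81-fold in control and 5.32-fold in Myocd-LSD1NF) and the two-pore gene Kcnk7 (3.12-fold and 3.28-fold). Those listed only in Myocd-LSD1 were the auxiliary genes Kcnip4 (10.6-fold) and Kcnmb2 (6.47-fold) and the Kv1.6 gene Kcna6.

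The replicate-based table covered part of this class. The authors' deposited table held a higher site on a promoter peak for 5 of the 13 (among them Kcnb2, Kcnc2, Kcne3 and Kcnma1; 38.5%), close to the 37.9% over all genes of that class. The authors' deposited table listed no promoter site for the other 8. Among genes marked in all 3 lists, the authors' deposited table gave a lower site on a promoter peak for 7 of 35 channel genes (20.0%, against 2.96% of all such genes) and a higher one for 4 (11.4%, against 7.03%). Lists and table come from the same samples, so they are not independent of each other.

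The second comparison asked where H3K4me2 differed between the fusion lines at these genes. The authors' deposited table held 42 sites that overlapped a peak of a channel gene, 21 lower and 21 higher. Over all of its sites, the authors' deposited table had 2174 lower and 3009 higher ones, 5.98% and 8.28% of about 36350 sites tested, a number estimated from the FDR and p-value columns. A lower site was found at 15 of the 67 channel genes with an H3K4me2 peak in either fusion line (22.4%; 13.1 to 34.2), against 9.28% of all such genes, by the authors' deposited table. A higher site was found at 16 of 67 (23.9%; 14.3 to 35.9), against 12.9%, again by the authors' deposited table. Kcnh2 and Kcne3 had both, 29 genes had either and 48 had neither. The median number of H3K4me2 peaks per gene over the 3 lists was 5 both for these 67 genes and for all such genes, with means of 6.09 and 6.56.

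Counted over peaks, the shares were also above those of all genes. Of the 129 Myocd-LSD1NF peaks of channel genes, 16.3% (10.4 to 23.8) overlapped a lower site, against 5.07% of all peaks of that list. Of the 132 Myocd-LSD1 peaks, 15.9% (10.1 to 23.3) overlapped a higher site, against 7.10%. These intervals take peaks as independent. Of the lower sites, 4 lay at Kcnd3 and 4 at Kcnip1, and of the higher sites 3 at Kcna6 and 3 at Kcnk2. The intervals may thus be too narrow. The median difference was -2.77 for the 21 lower sites and 2.86 for the 21 higher sites on the log2 scale of the authors' deposited table, where all lower and all higher sites had medians of -2.09 and 2.36. At 7 sites, 1 lower and 6 higher, the concentration in the lower line was the lowest listed for that line, so their differences carry no fold. On a promoter peak, within 3 kb of the start, lay 9 of the lower sites (42.9%, against 23.2% of all lower sites) and 12 of the higher sites (57.1%, against 43.97% of all higher sites), by the authors' deposited table.

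**Figure D3:**
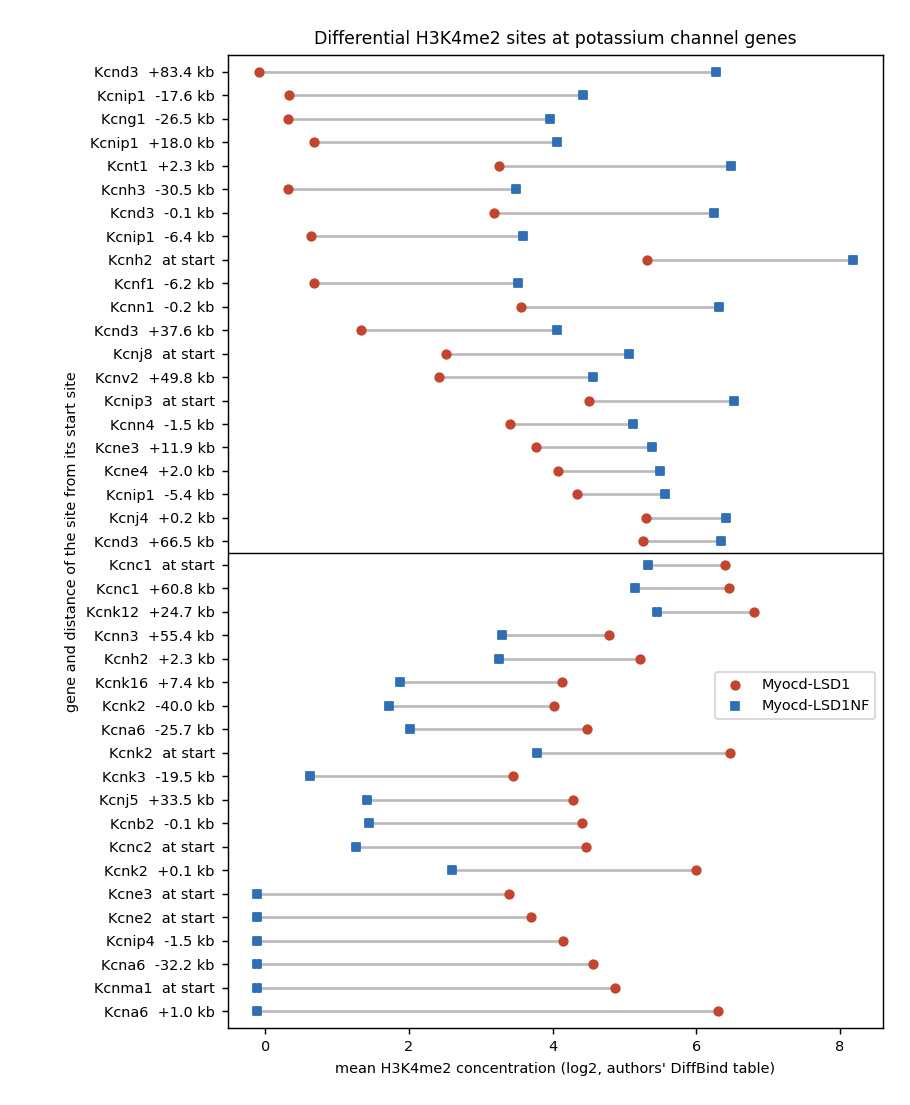
Mean H3K4me2 concentration (log2, from the authors' deposited table) in Myocd-LSD1 (red circles) and Myocd-LSD1NF (blue squares) at the sites of the genes reported here, with the gene and the distance of the site from its start. Lower sites stand above the line and higher sites below it, and Myocd-LSD1NF sits at its lowest listed value, -0.11, at 6 of the higher sites.

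Kv1 to Kv4 genes encode the pore subunits of delayed rectifier and A-type currents. Of the 15 measured, promoter peaks were listed for 12 in the control list, 12 in the Myocd-LSD1 list and 6 in the Myocd-LSD1NF list. All 4 lower sites of the family lay at Kcnd3, which encodes the A-type subunit Kv4.3. At the Kcnd3 start the concentration was 3.18 in Myocd-LSD1 against 6.24 in Myocd-LSD1NF, differing by -3.06 (FDR 2.91e-09), by the authors' deposited table, at chr2:207922475-207923721 of rn6. An intronic Kcnd3 site 83.4 kb downstream of the start, at chr2:208007169-208008033, stood at the lowest listed value of -0.08 in Myocd-LSD1 and at 6.27 in Myocd-LSD1NF (FDR 5.54e-10), by the authors' deposited table. The other Kcnd3 sites, also intronic, differed by -2.74 (FDR 0.00936) and -1.09 (FDR 0.00689), by the authors' deposited table. All 4 Kcnd3 sites overlapped a control peak, and the intronic one with the smallest difference also overlapped a FLAG peak of 8.11-fold enrichment. Site coordinates here may be off by 1 base, since the counting of the start column is not stated.

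The 7 higher sites of the Kv1 to Kv4 family lay at Kcna6, Kcnb2, Kcnc1 and Kcnc2. Kcna6 encodes the Kv1.6 subunit, and its promoter peak was listed only in Myocd-LSD1, at 10.5-fold enrichment. The Kcna6 site 1 kb downstream of the start, at chr4:159285116-159286200, had a concentration of 6.30 in Myocd-LSD1 and the lowest listed value, -0.11, in Myocd-LSD1NF (FDR 0.000156), by the authors' deposited table, and no control peak overlapped it. A Kcna6 site 32.2 kb upstream showed the same with 4.56 against -0.11 (FDR 0.000311), and one 25.7 kb upstream had 4.48 against 2.02 (FDR 0.0181), by the authors' deposited table. The last of these overlapped a control peak. At the start of Kcnc2 the concentration was 4.47 against 1.26 (FDR 0.000531), and at Kcnb2 4.41 against 1.45 (FDR 0.00197), by the authors' deposited table. Kcnc1, a Kv3 gene, had smaller differences of 1.07 at its start (FDR 0.00306) and 1.31 at 60.8 kb downstream, in an intron of Sergef (FDR 0.0107), by the authors' deposited table.

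Modifier subunits (Kcnf, Kcng, Kcns and Kcnv genes) do not form channels alone and join Kv2 subunits. Of 9 measured, the control, Myocd-LSD1 and Myocd-LSD1NF lists held promoter peaks for 7, 6 and 4. Their 3 sites were all lower and all away from the promoter. Over all genes with an H3K4me2 peak in either fusion line, 9.28% had a lower site and 12.9% a higher one. In the authors' deposited table Kcng1 differed by -3.64 at 26.5 kb upstream (FDR 0.0028), Kcnf1 by -2.84 at 6.19 kb upstream (FDR 0.0277) and Kcnv2 by -2.15 at 49.8 kb downstream (FDR 0.00908). All 3 overlapped a control peak, and at none was a Myocd-LSD1 peak listed.

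**Figure D4:**
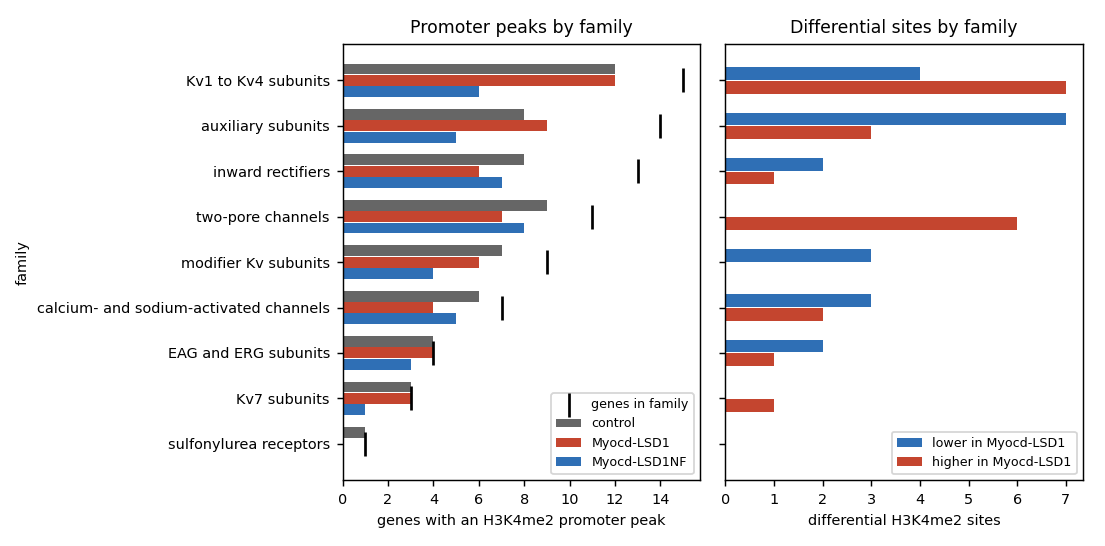
Number of genes with an H3K4me2 promoter peak in each list by channel family (left; black ticks, family size) and number of differential sites by family (right; blue lower, red higher in Myocd-LSD1). The Kv1 to Kv4 family went from 12 genes in control and Myocd-LSD1 to 6 in Myocd-LSD1NF. The two-pore channels had 6 higher sites, 3 of them at Kcnk2, and 0 lower ones.

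Kv7 and EAG or ERG channels also open on depolarisation. Kv7 channels set resting tone in arteries. Of their genes, Kcnq1 had a promoter peak in the control and Myocd-LSD1 lists, and Kcnq5 had one in all 3 lists. Kcnh2 encodes the ERG channel of cardiac repolarisation and had opposite differences at separate start sites. Its site at chr4:7376645-7379014 had 5.31 in Myocd-LSD1 against 8.18 in Myocd-LSD1NF, differing by -2.88 with the smallest FDR of the set (2.7e-21), by the authors' deposited table. The Kcnh2 site at chr4:7357941-7358542, 2.34 kb downstream of another start site of the gene, had 5.21 against 3.26, a difference of 1.95 (FDR 0.00084), by the authors' deposited table. Both Kcnh2 sites overlapped peaks in all 3 H3K4me2 lists. Kcnh3, an Elk-type channel gene, had a lower intronic site 30.5 kb upstream of the nearest start (-3.17, FDR 0.0284), by the authors' deposited table.

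The vascular ATP-sensitive channel is built from Kcnj8 (Kir6.1) and Abcc9 (SUR2), neighbouring genes on rat chromosome 4 whose starts lie 139 kb apart. Kcnj8 had a promoter peak of 11.97-fold enrichment in control, one of 9.91-fold in Myocd-LSD1NF and none in Myocd-LSD1. The Kcnj8 site, at chr4:176788948-176789739, had a concentration of 2.51 in Myocd-LSD1 against 5.06 in Myocd-LSD1NF, a difference of -2.55 (FDR 0.000173), by the authors' deposited table. Abcc9 had a promoter peak in control alone, at 8.10-fold and the 56.9 percentile of that list, and no H3K4me2 peak in either fusion line. The Kcnj8 promoter peak was at the 88.4 percentile in control, and both genes kept their class when the stronger 50% of each list was used. The only FLAG peak in this stretch lay in an intron of Abcc9, at 3.49-fold and the 4.80 percentile of the FLAG list. The other ATP-sensitive pore gene, Kcnj11, had a single distal peak, in the Myocd-LSD1NF list. That peak lay 37.3 kb upstream of Kcnj11, in an intron of Abcc8, although it was assigned to Kcnj11.

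**Figure D5:**
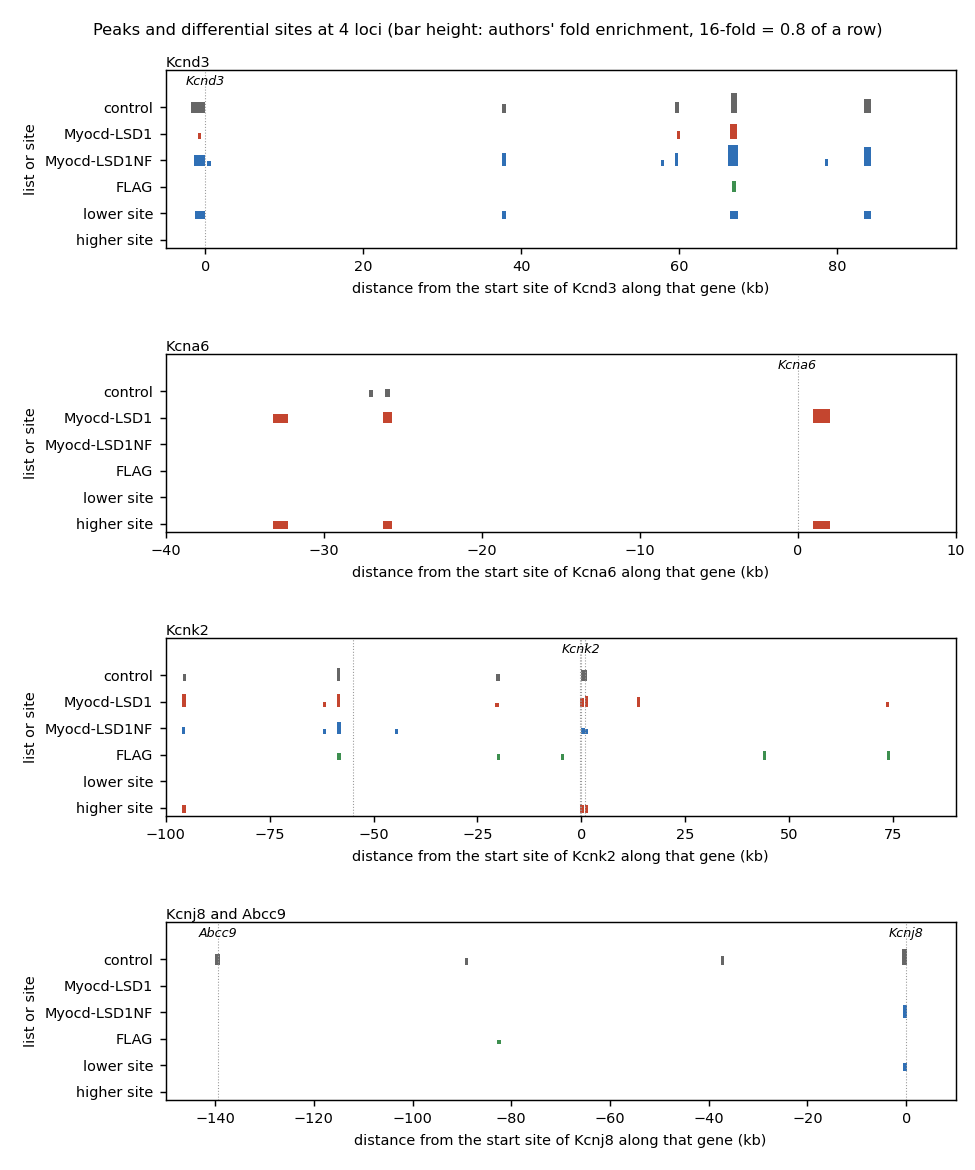
Peaks of each list (bar height, authors' fold enrichment) and differential sites (lower blue, higher red, fixed height) at Kcnd3, Kcna6, Kcnk2 and the Kcnj8 to Abcc9 stretch, by distance in kb from the start site of the first gene named, along that gene. At Kcnj8 the promoter peak is in control and Myocd-LSD1NF only, at Abcc9 in control only, and at Kcna6 in Myocd-LSD1 only.

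Among the remaining inward rectifiers, Kcnj2 (Kir2.1), the strong rectifier of arterial smooth muscle, had a high promoter peak in every line, at 13.6-fold, 9.51-fold and 14.9-fold in the control, Myocd-LSD1 and Myocd-LSD1NF lists, and had no site. These peaks stood at the 99.3, 95.5 and 99.6 percentiles of their lists. Kcnj4 (Kir2.3) had a lower site at its start (-1.11, FDR 0.02) and Kcnj5 (Kir3.4) a higher site 33.5 kb downstream (2.86, FDR 0.00258), by the authors' deposited table. Of 13 inward rectifier genes, 8, 6 and 7 had promoter peaks in the control, Myocd-LSD1 and Myocd-LSD1NF lists.

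Two-pore channels carry the background potassium current. Their 6 sites were all higher, at 4 of 11 genes. Over all genes with an H3K4me2 peak in either fusion line, 12.9% had a higher site and 9.28% a lower one. Kcnk2 (TREK-1, a stretch- and lipid-sensitive channel) had 3 of the 6 sites. At its start, chr13:107830792-107831842, the concentration was 6.47 in Myocd-LSD1 against 3.78 in Myocd-LSD1NF, differing by 2.69 (FDR 7.29e-12), and at the adjoining site it was 5.99 against 2.6, a difference of 3.39 (FDR 1.36e-10), by the authors' deposited table. A Kcnk2 site 40.0 kb upstream of another start differed by 2.30 (FDR 0.0329), by the authors' deposited table. All 3 lists held a peak at each Kcnk2 site. Kcnk3 (TASK-1), which sets the resting potential of pulmonary artery muscle, had a higher site 19.5 kb upstream (2.82, FDR 0.0435), and Kcnk16 (2.26, FDR 0.0187) and Kcnk12 (1.34, FDR 0.000808) one downstream of the start, in the authors' deposited table. At the Kcnk3 promoter itself, the peak was 9.12-fold, 3.54-fold and 4.73-fold in the control, Myocd-LSD1 and Myocd-LSD1NF lists, with no site. Promoter peaks of the family numbered 9, 7 and 8 in the control, Myocd-LSD1 and Myocd-LSD1NF lists.

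Calcium- and sodium-activated channels differed in both directions. Kcnma1, the pore of the BK channel that answers local calcium signals in arterial muscle, had a site at its start, chr15:343587-344469, with 4.87 in Myocd-LSD1 and the lowest listed value, -0.11, in Myocd-LSD1NF (FDR 1.75e-05), by the authors' deposited table. A control peak overlapped it. The small-conductance gene Kcnn1 had a lower site 0.2 kb upstream of its start (-2.77, FDR 0.0178), and the intermediate-conductance gene Kcnn4, known from proliferating smooth muscle, one 1.5 kb upstream (-1.71, FDR 0.0229), by the authors' deposited table. Kcnn3, a small-conductance gene, had a higher intronic site (1.48, FDR 0.0489), the largest FDR of the 42, in the authors' deposited table. Kcnt1, a sodium-activated channel gene, had a lower site 2.3 kb downstream of its start, with 3.25 against 6.48 (FDR 2.79e-11), by the authors' deposited table. Kcnt1 was classed as marked only in Myocd-LSD1NF, but its control peak began 3122 bp from the start, just past the limit of 3000 bp.

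Auxiliary subunits had 7 lower and 3 higher sites. Of the lower ones, 4 lay in introns of Kcnip1, a KChIP subunit that binds Kv4 channels, at -4.10 (FDR 0.000162), -3.38 (FDR 0.00465), -2.95 (FDR 0.022) and -1.21 (FDR 0.0257), by the authors' deposited table. Kcnip3, another KChIP gene, had 4.51 at its start in Myocd-LSD1 against 6.52 in Myocd-LSD1NF, differing by -2.01 (FDR 1.98e-06), by the authors' deposited table. Kcne4, a subunit of Kv7 channels in arteries, had a lower site 2 kb downstream of its start (-1.43, FDR 0.00968), by the authors' deposited table. Kcne3 had a lower site 11.9 kb downstream, in an intron of LOC100912071 (-1.61, FDR 0.00471), by the authors' deposited table. It also had a higher one at its start, where Myocd-LSD1 had 3.39 and Myocd-LSD1NF the lowest listed value (FDR 0.0179), by the authors' deposited table. At Kcne2 and Kcnip4 the higher sites had 3.70 (FDR 0.0137) and 4.14 (FDR 0.00126) in Myocd-LSD1, also with Myocd-LSD1NF at its lowest listed value, in the authors' deposited table. Neither overlapped a control peak. At another start of Kcne2, all 3 H3K4me2 lists held promoter peaks, and no site overlapped them. Kcnmb1, the BK subunit typical of smooth muscle, had no promoter peak in any list: its few peaks lay 32.1 to 55.8 kb away inside Kcnip1, the gene that surrounds it, and none overlapped a site.

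The control list placed these sites. Of the 21 lower sites, 20 overlapped a control peak (95.2%; 76.2 to 99.9), against 83.8% of all lower sites in the authors' deposited table, and 11 had a peak in control and none in Myocd-LSD1 (52.4%; 29.8 to 74.3, against 34.5%). Of the 21 higher sites, 17 overlapped a control peak (81.0%; 58.1 to 94.6, against 69.2%), and 9 had a peak in control and none in Myocd-LSD1NF (42.9%; 21.8 to 66.0, against 25.5%), again for sites of the authors' deposited table. The intervals of all 4 shares are wide, and all 4 hold the value over all sites. Of all 156 control peaks of channel genes, 25% (18.4 to 32.6) overlapped no peak of either fusion line, against 12.1% of all control peaks. These 39 peaks, at 30 genes, had a median rank at the 20.8 percentile of the control list.

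The FLAG map asked where FLAG peaks were called in cells with the tagged fusion. No FLAG map of control cells was among the samples, so FLAG signal in cells without the fusion is unknown. The peaks are thus not read as proof of binding. A FLAG peak was assigned to 36 of 77 channel genes (46.8%; 35.3 to 58.5), against 70.7% of all genes, and to 18 within 3 kb of a start (23.4%; 14.5 to 34.4, against 44.2%). A further count, of genes with a FLAG peak and no H3K4me2 peak in any list, came to 3 (3.9%, against 5.69% of all genes). The highest by peak score were at Kcns1 (8.90-fold, in an intron of Stk4), Kcnk12 (7.85-fold), Kcnh8 (9.74-fold, 35 kb upstream), Kcnab2 (8.66-fold, at the start), Kcnj2 (8.39-fold, 2.39 kb downstream) and Kcnn1 (6.15-fold, at the start). Of the 132 Myocd-LSD1 peaks of channel genes, 38 overlapped a FLAG peak (28.8%; 21.2 to 37.3), against 42.03% of all peaks of that list. A FLAG peak overlapped 3 of the 21 lower sites (14.3%; 3.05 to 36.3, against 22.7%), at Kcnd3, Kcnip1 and Kcnip3, and 4 of the 21 higher sites (19.0%; 5.45 to 41.9, against 32.5%), at Kcnc1, Kcnk12, Kcnn3 and Kcne3, for sites of the authors' deposited table.

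The vascular list gathered 26 channel genes known from arterial muscle, of which 23 were named in the peak lists. Promoter peaks were listed for 19, 18 and 14 in the control, Myocd-LSD1 and Myocd-LSD1NF lists (all genes named 65.8%, 64% and 61.7%). A lower site was listed in the authors' deposited table for 5 (Kcnd3, Kcnh2, Kcnj8, Kcnn4 and Kcne4) and a higher site for 7 (among them Kcna6, Kcnh2, Kcnk2, Kcnk3, Kcnma1 and Kcnn3). Of all genes with an H3K4me2 peak in either fusion line, 9.28% had a lower site and 12.9% a higher one, by the authors' deposited table. Kcna3, Kcnd1, Kcnk6, Kcnmb4 and Kcnq5 had promoter peaks in all 3 lists and no site. Partner genes that help or scaffold these channels were measured beside them: 14 of 17 were named in the lists, with promoter peaks for 10, 11 and 10 in the control, Myocd-LSD1 and Myocd-LSD1NF lists. By the authors' deposited table, 3 of the partners had a lower site (Hcn4, Dlg1 and Dlg4) and 2 a higher site (Dpp6 and Cav1). The shares over all genes just given stand beside the partner counts too. Dpp6, which with KChIP proteins forms the A-type channel complex of Kv4 subunits, had 6.31 at its start in Myocd-LSD1 and the lowest listed value in Myocd-LSD1NF (FDR 7.67e-11), by the authors' deposited table, with no control peak there.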

How the data were processed

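The samples, mapped by CUT&Tag for H3K4me2 or for FLAG, were grouped by line and antibody. Per the labels' protocols, pA-Tn5 cut the DNA of cells held on concanavalin A beads. The tools Bowtie2, deepTools, MACS2, ChIPseeker, DiffBind and build rn6 are named without role or version, per the submitters' processing notes. How reads were shifted for Tn5, whether duplicates were removed and whether samples were pooled is not stated. Each deposited list gives, per the file headers, a peak score, a fold enrichment ratio over background, a -log10 q-value and a distance in bp to a TSS as the authors annotated it. The authors' deposited table gives a p-value and FDR for each site, with the log2 concentration in each line and the log2 difference. Its sign equals Myocd-LSD1 minus Myocd-LSD1NF within 0.01. Depth per sample is unknown.

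From these, peaks and sites were joined by an overlap of at least 1 bp, promoters were taken as 3 kb around a TSS, and shares were given with exact (Clopper-Pearson) 95% binomial intervals (Python 3.11.15, pandas 2.3.3, numpy 2.4.6, scipy 1.17.1, matplotlib 3.10.9). Intervals over peaks or sites take these as independent, though a gene can hold several. The overlap code was tested on simulated lists with known answers. No test was run here: FDR values are the authors'. Members, gene lists and rules were chosen with earlier results of these data known. The rule for named genes took every member with a site, the vascular list, up to 6 members with the highest fold enrichment in each class of promoter peaks and the 6 members with the highest FLAG peaks. Genes outside the rule were named after their values were seen. Alternatives changed the promoter distance, list stringency, start-site assignment, FDR, difference and overlap. Some members are counted but not reported here by name.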

Additional observations from a re-analysis of the deposited data

How the results depend on the processing

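Of 51 recomputed counts and shares, 38 stayed within 1.5 times the reported count or within the interval of the reported share. Using the stronger 50% of each list gave promoter peaks for 37, 29 and 31 genes in the control, Myocd-LSD1 and Myocd-LSD1NF lists, which turned the order of the fusion lines (51 and 39 with all peaks), with 6 genes missing only in Myocd-LSD1, 2 missing only in Myocd-LSD1NF and 2 present only in Myocd-LSD1NF. A promoter of 1 kb left 1 gene present only in Myocd-LSD1, Kcna6. The classes were not counted over all genes at these settings, so whether their shifts are particular to channel genes is unknown. Counting any start site of a gene left the members of the 4 classes compared the same. An FDR of at most 0.01 left 13 higher sites, and the stronger 50% of the FLAG list left 21 genes with a FLAG peak, against 18 with FLAG peaks within 3 kb (all genes 44.2%). For the 13 and the 21, no share over all sites or genes was taken. The share of Myocd-LSD1 peaks that overlapped FLAG was 12.1% with an overlap of 50% of the peak and 17.4% with the stronger FLAG peaks, against 19.9% and 26.6% over all genes. With the stronger 50% of the control list, 42.9% of lower and 28.6% of higher sites overlapped a control peak, against 43.9% and 41.9% over all sites. The cause of these shifts was not tested beyond the shorter lists themselves. Of single sites, 15 of 42 had an FDR above 0.01, and all 42 differed by at least 1 on the log2 scale. No paired analysis was possible because the lists and the table hold no values per sample; for the same reason no sample could be left out.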

Other observations

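The 3 channel genes with a FLAG peak and no H3K4me2 peak in any list (3.9%, against 5.69% of all genes) were Kcna7 (a Kv1 pore subunit), Kcne1 and Kcnmb3 (auxiliary subunits). The 7 with H3K4me2 peaks at any distance in control alone (9.09%, against 3.9%) included Abcc9, Kcna1, Kcnj3, Kcnk10 and Kcnt2. Kcnj1 and Kcnk16 were among the 11 listed in control and Myocd-LSD1 with none in Myocd-LSD1NF (14.3%, against 3.94%), as was Kcna6. Those listed in control and Myocd-LSD1NF with none in Myocd-LSD1 were the 4 genes Kcng2, Kcnj8, Kcnk7 and Kcnn2 (5.19%, against 2.97%).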
